A study of Mus musculus with 4 samples.

Results

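The genes of V(D)J recombination were followed across 4 cultures of mouse fetal liver progenitors. The set holds 10 genes picked by symbol from the authors' value table of 18113 gene names, where they are written RAG1, RAG2, DNTT, XRCC4, XRCC5, XRCC6, PRKDC, LIG4, DCLRE1C and HMGB1, and all 10 had a row. Of these, 3 are lymphoid-specific (Rag1, Rag2 and Dntt) and 7 are used by cells of most tissues (Xrcc4, Xrcc5, Xrcc6, Prkdc, Lig4, Dclre1c and Hmgb1). The cultures crossed 2 genotypes with 2 retroviruses, giving 4 groups with 1 Illumina array each. These are WT+Ctrl (called wild type/control below), WT+ETV6-RUNX1 (wild type/fusion), Btg1-/-+Ctrl (knockout/control) and Btg1-/-+ETV6-RUNX1 (knockout/fusion). In every group the cells were c-Kit+ Ter119- fetal liver cells taken on beads from C57BL6/J embryos at day 13.5, spun with virus and then cultured for 12 days in FLT-3L at 10 ng/ml, IL-7 at 20 ng/ml and SCF at 100 ng/ml. A preculture of 24 hours and an infection of 48 hours are listed for every group. All groups therefore shared virus infection and a lymphoid growth medium, and the labels give neither the number of embryos behind a culture nor a selection of infected cells before RNA was taken. ETV6-RUNX1 is the fusion of a common childhood B-precursor leukemia, and Btg1 encodes an antiproliferative co-regulator that such leukemias often lose.

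V(D)J recombination assembles immunoglobulin and T-cell receptor genes in developing lymphocytes. The RAG1-RAG2 recombinase, helped by the bending protein HMGB1, cuts DNA at recombination signals and leaves hairpin-sealed coding ends. The Ku heterodimer binds those ends and recruits the kinase DNA-PKcs, whose partner Artemis opens the hairpins, terminal transferase adds untemplated bases, and XRCC4 with DNA ligase IV seals the joint. In the B lineage the recombinase is made in pro-B and pre-B cells, whereas the joining enzymes repair DNA breaks in most cells. Terminal transferase is scarce in fetal B-cell development of the mouse and abundant after birth.

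The promoters of the 3 lymphoid genes are shown because those genes differ from the end joining genes in sequence as well as in where they are used, and that of Lig4 is shown for contrast. The windows run from 250 bases before to 50 bases after a listed start of each gene. They are read 5′ to 3′ on the strand of the gene, from RefSeq on build GRCm38.p6. The table held a window for 9 members, and Prkdc is the other. Capitals mark matches on either strand to any of 4 motifs: RUNX (TGTGGT), FOXO (TGTTTAC), the E-box CAGGTG and the ETS core CCGGAA.
Rag1 (chr2:101649483-101649782, minus strand): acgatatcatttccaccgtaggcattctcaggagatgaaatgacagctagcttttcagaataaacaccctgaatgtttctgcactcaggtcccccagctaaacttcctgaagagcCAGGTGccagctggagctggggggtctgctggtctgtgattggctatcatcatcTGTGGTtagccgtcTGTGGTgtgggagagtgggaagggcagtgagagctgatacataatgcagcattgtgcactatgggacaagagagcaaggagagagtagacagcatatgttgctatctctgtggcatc
Rag2 (chr2:101624462-101624761, plus strand): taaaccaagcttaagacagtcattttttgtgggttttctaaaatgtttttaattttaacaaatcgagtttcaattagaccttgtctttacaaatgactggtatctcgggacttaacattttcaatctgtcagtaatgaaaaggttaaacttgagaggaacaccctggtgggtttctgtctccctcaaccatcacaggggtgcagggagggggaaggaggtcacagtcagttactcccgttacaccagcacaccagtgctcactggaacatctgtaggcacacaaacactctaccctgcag
Dntt (chr19:41029025-41029324, plus strand): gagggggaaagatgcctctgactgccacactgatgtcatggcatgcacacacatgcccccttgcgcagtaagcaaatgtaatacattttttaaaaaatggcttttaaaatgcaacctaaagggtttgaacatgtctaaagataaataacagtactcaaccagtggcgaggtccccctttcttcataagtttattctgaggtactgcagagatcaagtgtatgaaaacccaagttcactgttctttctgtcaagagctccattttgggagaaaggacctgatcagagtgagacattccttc
Lig4 (chr8:9977631-9977930, minus strand): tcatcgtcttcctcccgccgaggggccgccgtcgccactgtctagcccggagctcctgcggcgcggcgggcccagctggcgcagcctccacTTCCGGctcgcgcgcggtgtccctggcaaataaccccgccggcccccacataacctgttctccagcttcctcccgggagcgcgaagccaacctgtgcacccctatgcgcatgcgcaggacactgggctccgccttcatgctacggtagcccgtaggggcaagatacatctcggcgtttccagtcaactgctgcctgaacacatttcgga

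The Rag1 window held 2 RUNX matches, starting 81 and 67 bases before the gene start, and an E-box match starting 135 bases before it. Among 32851 promoter windows of the same length, 16.8% held the RUNX letters at least once, 1.81% at least 2 times, and 20.2% held the E-box letters. The windows of Rag2 and Dntt held none of the 4 motifs, which says only that these letters are not in them. The FOXO letters were in none of the 9 members' windows and in 3.65% of all windows. The ETS letters were in 14.9% of all windows and, among the members, in windows of Xrcc4, Lig4, Dclre1c and Hmgb1. None of the matched motifs overlapped another. The lymphoid promoters were poor in CG dinucleotides, with 3 in Rag1, 3 in Rag2 and 2 in Dntt, against a median of 7 over all windows. Those of the ubiquitous members held between 9 (Xrcc5) and 45 (a Hmgb1 start), with 30 each in Xrcc6 and the first Lig4 window. The Xrcc6 window begins at base 82016119 of chromosome 15, inside a gene listed from 81987833, so its count is for an internal start. The lymphoid and the ubiquitous windows did not overlap in CG count, but 31.4% of all windows held 3 or fewer, so counts as low as the lymphoid ones are common.

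Values are log2 levels normalized together by the authors with RMA, which makes the arrays' distributions alike. A level of 6 served as the floor: a lower value was raised to 6 before subtraction, and a difference from it is a bound. A gene was compared where at least 1 of the 2 arrays reached the floor, and a difference was called at 2-fold, which is 1 on the log2 scale. With 1 array per group there is no test, no replicate error and no p-value for any difference. The robust standard deviation among a gene and the 250 on either side of it in level, between the same pair of arrays, is given as the spread. It contains real differences among those genes and none of the variation between cultures. The number of genes at or above the floor was 5869 to 5900 per array. The robust standard deviation of differences over the 1535 genes averaging 10 or more was 0.120 between the control-virus arrays and 0.135 between the wild-type arrays, but 0.2402 to 0.296 where the knockout/fusion array was used. That array also held the highest level for 33.4% and the lowest for 33.9% of the 6321 genes above the floor somewhere, more than any other array. Btg1 itself was lower in both knockout arrays, as labelled, with log2 levels of 11.87 and 11.97 in wild type and 9.02 and 9.97 in the knockout. Both knockout levels lay above the floor. Knockout/fusion was 0.95 above knockout/control for Btg1 (spread 0.34), and the reason was not tested.

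Rag1, the catalytic subunit of the recombinase, varied most of the members once low values were floored. Its log2 level was 10.79 in wild type/control, 10.63 in wild type/fusion, 9.62 in knockout/control and 11.09 in knockout/fusion. Knockout/control was the low array, and the other 3 lay within 0.46 of each other. All 4 levels were well above the floor. Rag2, the regulatory subunit, whose gene neighbours Rag1 on chromosome 2, reached the floor only with ETV6-RUNX1, at 6.36 in wild type and 6.64 in the knockout. In the control-virus cultures it was at 5.78 and 5.18, below the floor. Dntt, the terminal transferase that lengthens junctions, reached it only in knockout/fusion, at 7.05. It stood at 5.69 in wild type/control, 4.60 in wild type/fusion and 5.31 in knockout/control. Levels under the floor have no order, so nothing is read from those 3 values.

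**Figure D1:**
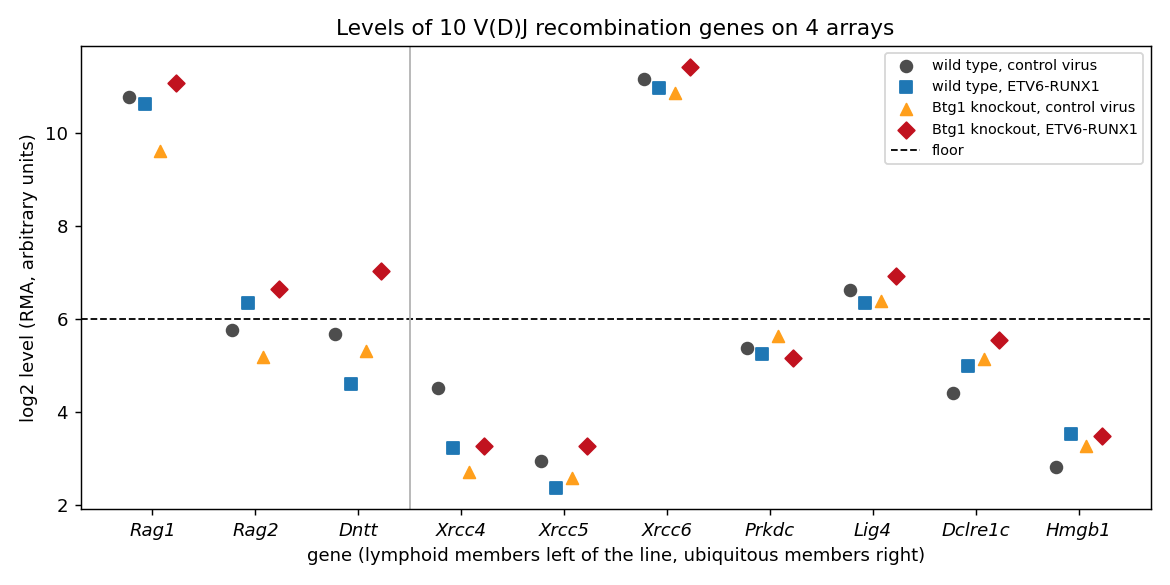
Log2 levels (RMA, vertical axis) of the 10 genes on the 4 arrays, with 1 point per array and the floor of 6 as a dashed line. Rag1, Xrcc6 and Lig4 lie above the floor on every array, Rag2 on 2, Dntt on 1, and the other 5 genes on none.

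Of the ubiquitous members only Xrcc6 and Lig4 were measured. Xrcc6, the smaller Ku subunit, had log2 levels of 11.17 and 10.99 in wild type under control virus and fusion, and 10.88 and 11.43 in the knockout. Lig4, the ligase that closes the joint, had 6.62 and 6.34 in wild type and 6.38 and 6.94 in the knockout, just above the floor. Their highest and lowest arrays were 0.55 and 0.60 apart on the log2 scale, or 1.47-fold and 1.51-fold, whereas those of Rag1 were 1.47 apart, or 2.78-fold. A distance of at least 2-fold between the highest and lowest array was found in 6.79% of the 6321 genes, and among the 5 measured members in Rag1 and Dntt. The neighbouring levels of Lig4 in wild type/fusion and in knockout/control differed by less than the spread, which was 0.37 to 0.51 near that level.

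The other 5 ubiquitous members were below the floor on all 4 arrays. Xrcc5, the larger Ku subunit, ranged from 2.36 to 3.26, and Xrcc4, the partner of the ligase, from 2.71 to 4.52. Prkdc, which encodes DNA-PKcs, ranged from 5.17 to 5.65, and Dclre1c, which encodes the hairpin opener Artemis, from 4.42 to 5.55. Hmgb1, an abundant chromatin protein in most cells, was listed at 2.82 to 3.52. No detection value was used for these rows, so whether the transcripts were low or the rows read them poorly was not tested, and the 5 genes enter no comparison.

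The 3 members above the floor on every array, Rag1, Xrcc6 and Lig4, each had their highest level in knockout/fusion, the array that stood apart. Of the 6321 genes, 33.4% had their highest level there. Dntt and Rag2 were also highest there, but they reached the floor only through that array or through both fusion arrays, so they add nothing to the count. Among the 3, Rag1 and Xrcc6 were lowest in knockout/control, and Lig4 in wild type/fusion. Of all genes, 12.8% were highest in knockout/fusion and lowest in knockout/control.

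ETV6-RUNX1 was first compared with the control virus in the knockout, where Rag1 and Dntt passed 2-fold. Rag1 differed by 1.47 (2.78-fold, spread 0.33), and a difference of that size in either direction was seen in 0.942% of 6159 genes. Dntt was at least 2.07-fold higher against a level below the floor, and Rag2 at least 1.56-fold higher, a bound that does not reach 2-fold. Both depend on the floor. With a floor of 7 the Dntt difference was 0.05 and its call was lost, as it was when a difference of 3 spreads was asked for. With a floor of 5 Rag2 differed by 1.46 and was called. Xrcc6 differed by 0.55 (spread 0.30) and Lig4 by 0.56 (spread 0.51), neither past 2-fold. Thus 2 of the 5 compared members were called, and 4.06% of all genes compared were called either way. Dntt and Rag2 were compared only because knockout/fusion reached the floor, so they could only come out higher. The direction is therefore read from Rag1, Xrcc6 and Lig4 alone. The control of this pair was the low Rag1 array, and the knockout/fusion array differed by 0.30 from wild type/control (spread 0.30) and by 0.46 from wild type/fusion (spread 0.26).

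In wild-type cells no compared member passed 2-fold with ETV6-RUNX1. Rag1 differed by -0.16 (spread 0.14), Xrcc6 by -0.18 (spread 0.14) and Lig4 by -0.28 (spread 0.46). Rag2 was at least 1.28-fold higher with the fusion, a bound of 0.36 on the log2 scale beside a spread of 0.37. With a floor of 5 it differed by 0.58. It was compared only because the fusion array reached the floor, so it could only come out higher. Dntt was below the floor on both arrays. The call covers 4 members, and 2.24% of 6123 genes were called.

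Loss of Btg1 with control virus went with lower Rag1. The difference was -1.18 (2.26-fold lower, spread 0.13), and 0.279% of 6097 genes differed by as much in either direction. Xrcc6 differed by -0.29 (spread 0.13) and Lig4 by -0.24 (spread 0.37). Rag2 and Dntt were below the floor on both arrays, so whether the other lymphoid members went with Rag1 here cannot be read. Rag1 was the member called of 3 compared, while 0.672% of all genes were called. This comparison shares the knockout control array with the preceding one in the knockout, so its low Rag1 value enters both with opposite signs.

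With ETV6-RUNX1 present, Btg1 loss went with values on the other side of 0. Rag1 differed by 0.46 (spread 0.26), Rag2 by 0.28 (spread 0.46), Xrcc6 by 0.44 (spread 0.24) and Lig4 by 0.60 (spread 0.43). Dntt was at least 2.07-fold higher in the knockout and was the member called of 5, beside 1.59% of all genes. Against wild type/control, the cells with both lesions had Rag2 at least 1.56-fold and Dntt at least 2.07-fold higher, while Xrcc6 differed by 0.26 and Lig4 by 0.32, both within their spreads. There too Dntt was called of 5 members, and 4.39% of all genes were. The Dntt bounds in these 2 comparisons and in the knockout rest on the same value of the array with both lesions. Dntt was compared only because that array reached the floor, so it could only come out higher in them.

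**Figure D2:**
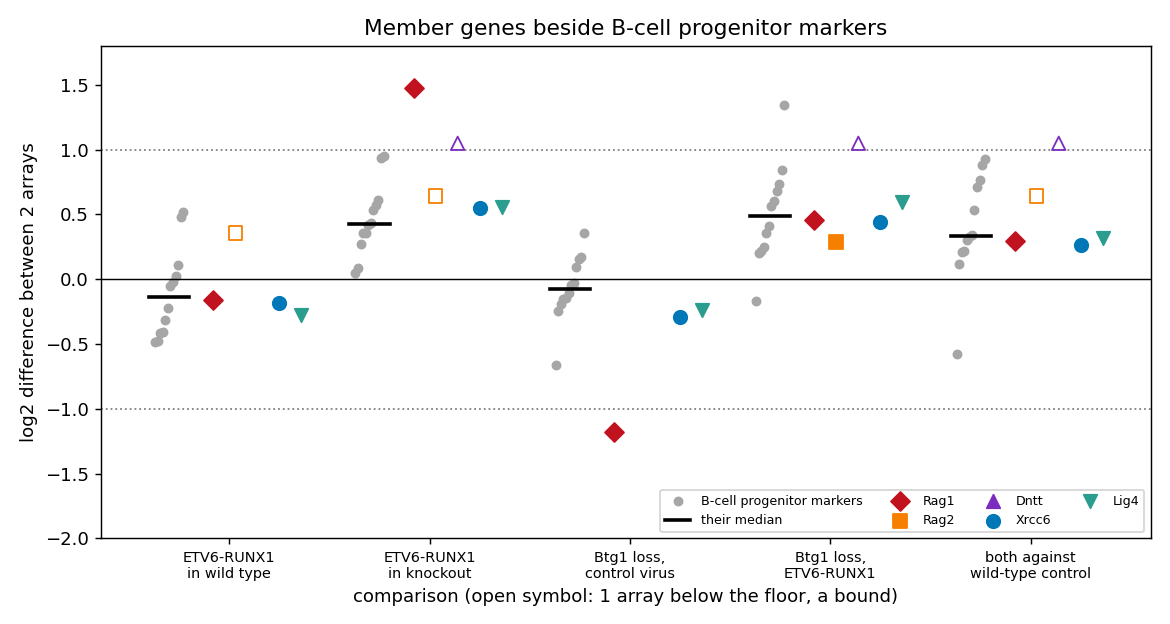
Log2 differences (vertical axis) of the measured members in 5 comparisons of 2 arrays, with the 12 compared B-cell progenitor markers as grey points and their median as a bar. Open symbols are bounds, and dotted lines mark 2-fold. Rag1 lies above all 12 markers for ETV6-RUNX1 in the knockout (1.47) and below all 12 for Btg1 loss with control virus (-1.18).

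The ETV6-RUNX1 difference in the knockout exceeded that in wild type by 1.63 for Rag1 (spread 0.34), 0.83 for Lig4 (spread 0.56) and 0.73 for Xrcc6 (spread 0.32). For Rag1, 0.522% of the 6321 genes had a difference of effects as large. A value of at least 1 in either direction was found in 4.33% of genes. With floored levels the value was 1.05 for Dntt and 0.28 for Rag2, but both depend on values under the floor and are no bounds. Without replicates none of these was tested.

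**Figure D3:**
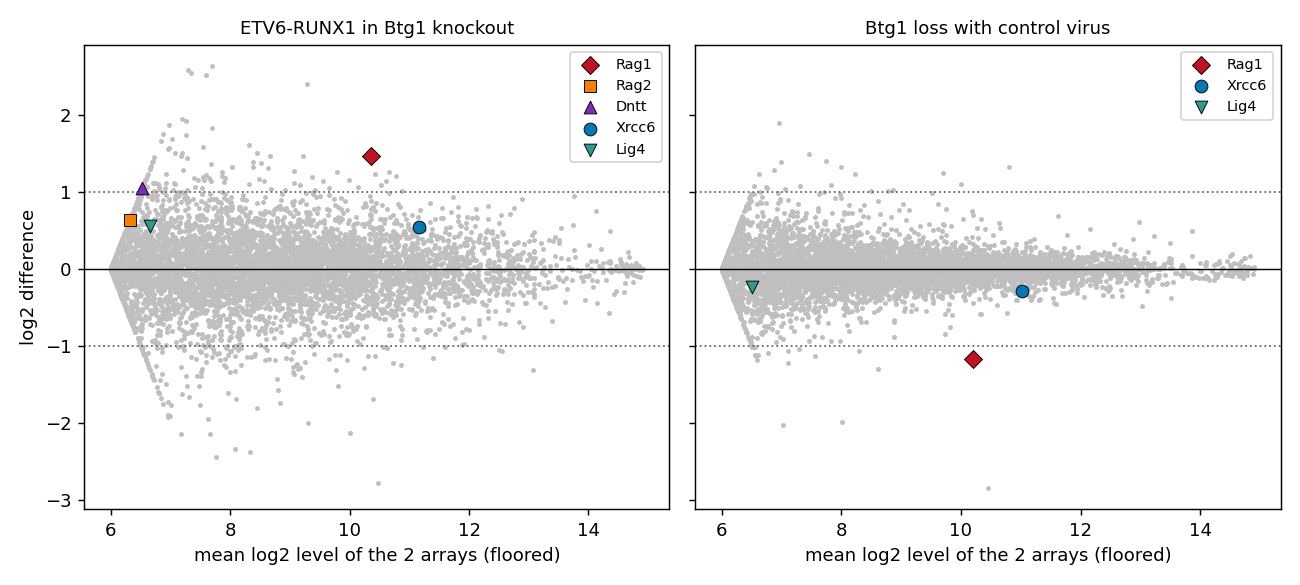
Log2 difference (vertical axis) against the mean floored log2 level of the 2 arrays (horizontal axis) for every gene compared, with members as colored symbols and dotted lines at 2-fold. Rag1 lies beyond 2-fold in both panels, at 1.47 and -1.18, while Xrcc6 and Lig4 lie within 2-fold.

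B-cell markers spanned less than Rag1 in both comparisons in which Rag1 was called. In bulk RNA, fewer cells of a type and less RNA per cell cannot be told apart. Of 14 B-cell progenitor markers on the array, 12 were above the floor on every array, among them Vpreb1, a surrogate light chain gene, at 13.78 to 14.0. Kit, on which the cells were isolated, was not analysed here. Ms4a1, a gene of more mature B cells, and Lax1 were below the floor throughout. The summed linear level of the list was 43879 and 42482 in wild type under control virus and fusion, and 43208 and 55296 in the knockout. Sums here and below also include genes under the floor, at their listed levels. With Btg1 loss under control virus the 12 markers had a median difference of -0.08 (range -0.66 to 0.35, none past 2-fold), against -0.00072 for all genes, while Rag1 was at -1.18. With ETV6-RUNX1 in the knockout all 12 lay above 0 with a median of 0.43 (range 0.05 to 0.95, none past 2-fold), against 0.01 for all genes, and both Rag1 and the Dntt bound lay above all 12. In wild type the fusion left Rag1 (-0.16) near the marker median (-0.14), and with Btg1 loss under the fusion Rag1 (0.46) was near theirs (0.49). In the latter comparison the kinase gene Blk, at 1.34, was 1 marker called of 12, beside 1.59% of all genes.

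T-cell precursors also use the recombinase. Of 14 T-lineage markers, 12 were below the floor on all arrays, including the T-cell receptor chains' partners Cd3e, Cd3d and Cd3g, the co-receptors Cd4 and Cd8a, and the pre-T-cell receptor chain Ptcra. The other two were Thy1 and the kinase gene Lck, which are not restricted to T cells in mouse. Lck was at 7.95 and 7.97 in wild type and 8.79 and 8.41 in the knockout, without and with the fusion, so its order differed from that of Rag1.

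Mast cell and megakaryocyte markers were among the genes past 2-fold with ETV6-RUNX1, more of them in wild type than in the knockout. The summed linear level of 11 mast cell and basophil markers was 34345 and 81807 in wild type/control and wild type/fusion and 49597 and 79938 in the knockout. In wild type 10 of 10 compared were called higher with the fusion, beside 2.24% of all genes called either way, among them Slc18a2, the amine transporter (at least 4.86-fold), Ms4a2, the IgE receptor beta chain (2.09), and Tpsab1, a tryptase (1.83). In the knockout all 10 lay above 0 and 1 was called, beside 4.06% of all genes. With Btg1 loss under control virus all 10 also lay above 0, with a median of 0.57. Called there were Fcer1a, the IgE receptor alpha chain (1.25), and Tpsab1 (1.10), beside 0.672% of all genes. With Btg1 loss under the fusion their median was -0.09. Slc18a2 was below the floor in wild type/control, so against that array it could only come out higher. Fcer1a differed by 1.69 and the chymase gene Cma1 by 1.56 between cells with both lesions and wild type/control. Among 10 megakaryocyte markers, of which 6 were below the floor throughout, 3 of 3 compared were called in wild type and 2 of 4 in the knockout, with the transcription factor gene Nfe2 at 1.33 in the knockout, the adhesion protein gene Vwf at least 2.20-fold higher in wild type, and the integrin gene Itga2b at least 3.32-fold higher with both lesions than in wild type/control. Itga2b and Vwf in wild type, and Vwf and Gp5 in the knockout, reached the floor only with the fusion. Those entries could only come out higher, so the counts are not read as a direction. The summed level of the megakaryocyte list was 412.5 and 842.3 in wild type and 357.4 and 884.5 in the knockout. These sums include levels under the floor, which have no order. In wild type/control 1 of the 10 genes reached the floor, so nothing is read from the sums. The protease gene Ctsg, of 12 granulocyte and monocyte markers with 8 below the floor throughout, was at least 2.54-fold higher with both lesions than in wild type/control. It was 1 called of 4 compared, beside 4.39% of all genes. Ctsg was below the floor in wild type/control, so against that array it could only come out higher. Of 9 dendritic cell markers 4 were compared with the fusion in the knockout, and 3 of them lay above 0, with a median of 0.31. The other was Cd74, the invariant chain, which differed by -2.38. Of 9 erythroid markers 7 were below the floor throughout, and the 2 compared with Btg1 loss under control virus went opposite ways, the globin gene Hbb-b1 at -0.82 and the other at 0.17. The part of these cell types in the member values was not tested.

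Other factors that cut, process or join the ends showed small differences. HMGB2, which can replace HMGB1 as the bending cofactor, had log2 levels of 12.36, 12.42, 12.36 and 12.43 on the arrays in the order given above, a flat profile. Of 7 accessory genes on the array, 4 or 5 were compared and none was called in any of the 5 comparisons. Poll, a gap-filling polymerase, differed by 0.52 with Btg1 loss under control virus, and Nhej1, the XRCC4-like factor, reached the floor only in knockout/fusion, at 6.30. Aplf, a scaffold of end joining, ranged from 6.56 to 7.01. Polm and Aptx were below the floor throughout.

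Of 13 genes of the response to DNA breaks, 9 or 10 were compared and none was called. With the fusion in the knockout their median was 0.01 and their range -0.60 to 0.68. The ends of that range were Trp53, the damage-induced transcription factor (10.61 in knockout/control, 10.002 in knockout/fusion), and Chek2, a checkpoint kinase (6.84 and 7.51). Atm, the kinase that RAG breaks activate, was at 6.05 in wild type/control and below the floor on the other arrays. Mad2l2, a shieldin subunit that limits end resection, differed by -0.48 with the fusion in wild type. Of 6 alternative end joining genes, 5 were compared and none was called, with the poly(ADP-ribose) polymerase gene Parp2 at 0.52 with Btg1 loss under control virus.

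Transcription factors linked to Rag expression or to lymphoid fate were compared next. Of 17 on the array, 13 were compared with the fusion in the knockout: 11 lay above 0 and 2 below, with a median of 0.52. Myb, among the 11, was below the floor in knockout/control (5.87), so it could only come out higher. The count and the median include it and are not read as a direction. Of all genes 51.3% lay above 0, with a median of 0.01, and the B-cell markers, at 12 of 12 and 0.43, stood about as far from 0. The factor past 2-fold was Gfi1b, a repressor of Rag transcription in mouse pro-B cells. Its levels were 6.76 and 7.15 in wild type and 6.44 and 7.95 in the knockout, there a difference of 1.51. It was 1 called of 13 compared, beside 4.06% of all genes. Satb1, a chromatin organizer, differed by 0.89 in that comparison, Bach2 by 0.77, Ikzf1, the gene of Ikaros, by 0.70 and Lef1 by 0.70. Foxo1, an activator of the Rag genes in mouse B-cell progenitors, differed by 0.23 and its relative Foxp1 by 0.21. Runx1 differed by -0.32 and Bcl11a by -0.50. Pax5 and Tcf3, which B-cell progenitors require, were listed below the floor on all arrays and were not compared.

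With Btg1 loss under control virus, where Rag1 was 2.26-fold lower, none of 12 compared regulators was called, with a median of -0.08. The lowest was Lef1 at -0.83 (7.07 to 6.24), followed by Gfi1b and Satb1, both at -0.32. Foxo1 differed by -0.14, Ebf1, a B-lineage determinant, by 0.02 and Bach2 by -0.10. In wild type with the fusion 5 of 12 lay above 0 and none was called. Spi1, among those 5, was below the floor in wild type/control, so against that array it could only come out higher. With Btg1 loss under the fusion 11 of 13 lay above 0 with a median of 0.51, again with none called. Myb, among those 11, reached the floor only in knockout/fusion, so it could only come out higher. The count is not read as a direction. With both lesions against the wild-type control Gfi1b was the factor past 2-fold, at 1.19. It was 1 called of 13 compared, beside 4.39% of all genes.

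Of 3 neighbours of the Rag genes, 1 was measured. Traf6, a signaling ligase gene beside Rag1, had log2 levels of 8.81 and 8.81 in wild type and 8.80 and 9.03 in the knockout. Its difference was -0.0053 with Btg1 loss under control virus and 0.23 with the fusion in the knockout, against -1.18 and 1.47 for Rag1. Iftap, which overlaps Rag2 and which the array lists as B230118H07Rik, was below the floor on all arrays, as was Prr5l. Which strand the array sequences read was not given in the sources used here.

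Genes with a profile like that of Rag1 were sought among 300 named genes above the floor on all arrays and at least 2-fold apart between arrays. Likeness was the Euclidean distance between log2 levels centred on their mean over the 4 arrays. The nearest were Rasgrp2, an exchange factor for Rap1 (distance 0.27), Capsl, a calcium-binding protein gene (0.28), Pik3cg, a catalytic subunit of phosphoinositide 3-kinase (0.45), Tfdp2, a partner of E2F factors (0.46), and Ddx25, an RNA helicase gene (0.46). Capsl had levels of 9.27, 9.21, 7.97 and 9.28, with the knockout control again the low array. For Dntt at its floored levels the nearest of 301 were Hdac5, a histone deacetylase gene (0.08), H2-Ob, a class II chain gene (0.12), Xlr4a (0.14), Acy3, an aminoacylase gene (0.17), and Grb7, an adaptor gene (0.17). Since Dntt was at the floor on 3 arrays, its profile is only that of a gene highest with both lesions.

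**Figure D4:**
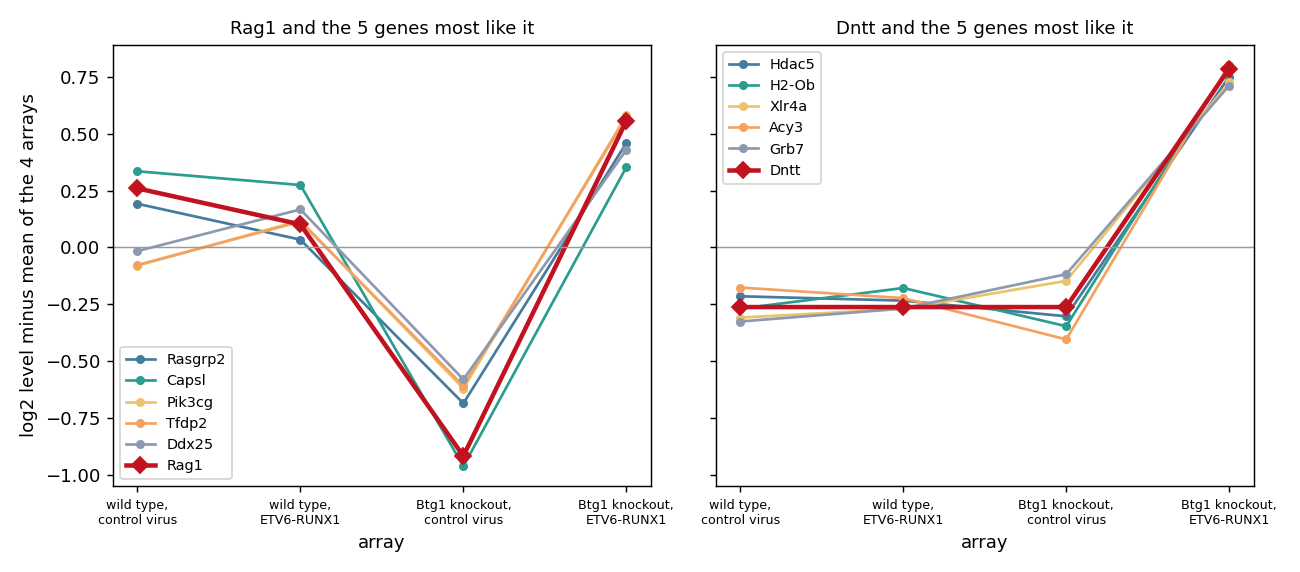
Log2 level minus the mean of the 4 arrays (vertical axis) for Rag1 and Dntt, the latter with floored levels, and the 5 genes nearest to each, with lines joining the 4 arrays of each gene. The Rag1 group dips in knockout/control, and the Dntt group stands out in knockout/fusion.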

How the data were processed

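Gene expression was measured on Illumina MouseRef-8 arrays, 1 for each of 4 groups. The authors deposited log2 levels, RMA-normalized in ArrayStar per the file headers, with 1 value per gene name. The sources used here do not say how several probes were merged, nor which genome build applies. Deposited beside them, per the file headers, was a fold ratio for 5 comparisons, which differed from the log2 levels by at most 1e-05. Another 8 columns of raw signals and detection values name no sample and were not used, so no background or depth could be set for a probe.

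Differences of log2 levels were computed with a floor of 6 and called at 2-fold, with no test. Members, lists, floor and rules were chosen with earlier results of these data known. The genes named were the 10 members, Btg1, the neighbours of the Rag genes, up to 5 genes past 2-fold from each other list (or 1 near its median) and the 5 genes nearest in profile to each member spanning 2-fold, and others of a list were named after their values were seen. Some list genes are not reported here by name. List genes with no matched row were left out, and older names were matched through RefSeq. Calculations used Python 3.11.15, numpy 2.4.6, pandas 2.3.3 and matplotlib 3.10.9 and were tested on simulated data. The alternatives were another scaling, floors of 5 and 7, no floor and a stricter call.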

Additional observations from a re-analysis of the deposited data

Results flagged for a closer look

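For 3 members the difference with ETV6-RUNX1 had opposite signs in the 2 genotypes, and the difference between genotypes was not tested, since each sign rests on 2 arrays. Of all genes compared, 45.4% lay above 0 in wild type and 51.3% in the knockout. The share of all genes with opposite signs was not counted, so the signs alone set these members apart from nothing. The knockout value minus the wild-type value was 1.63 for Rag1 (1.47 against -0.16), 0.83 for Lig4 (0.56 against -0.28) and 0.73 for Xrcc6 (0.55 against -0.18). The Lig4 and Xrcc6 differences were each under 2-fold in both genotypes. All 3 use the knockout array with ETV6-RUNX1, which stood apart over all genes.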

How the results depend on the processing

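No paired analysis was possible because each group has 1 array. Scaling to an equal 75th percentile kept every count within 1.5 times and all 27 member values within their spread. Of 97 recomputed member values, 83 moved by less than the spread, 14 moved by more, all of Rag2 or Dntt, and none reversed. The floor settings could not move the values of Rag1 and Xrcc6, nor those of Lig4 where it was compared. Those values among the 83 therefore say nothing about the floor. Genes past 2-fold, in the order of ETV6-RUNX1 in wild type, in the knockout, Btg1 loss with control virus, with ETV6-RUNX1, and both lesions, numbered 137, 250, 41, 97 and 271. They numbered 241, 379, 100, 174 and 431 with a floor of 5, 75, 152, 19, 50 and 166 with a floor of 7, and 1574, 1690, 1468, 1404 and 1824 with no floor. Asking also for a difference of 3 spreads, a rule chosen after seeing the data, left 121 in the knockout, 53 for Btg1 loss with ETV6-RUNX1 and 164 for both lesions. Rag1 was called in the knockout and with Btg1 loss under control virus under every setting. Its levels lie above every floor used, so only the scaling and the stricter rule could have changed those calls. The Dntt calls ended with a floor of 7 (0.05) and with the stricter rule, so members called went from 2 to 1 in the knockout and from 1 to 0 with Btg1 loss under ETV6-RUNX1 and with both lesions. Of all genes in the knockout comparison, 3.01% were called with a floor of 7 and 1.96% with the stricter rule. With no floor all 10 members were compared. Called were 2 in wild type (Dntt and Xrcc4, both lower), beside 8.69% of all genes. With Btg1 loss under control virus they were 2 (Rag1 and Xrcc4), beside 8.10%. With both lesions they were 3 (Dntt, Xrcc4 and Dclre1c), beside 10.1%. Apart from Rag1, these calls use levels that have no order. Rag2 in the knockout was 1.46 with a floor of 5 and with none, which made 3 members called. These were of 7 compared beside 5.29% of all genes with a floor of 5, and of 10 beside 9.33% with none. The Dntt difference of effects ran from 0.05 with a floor of 7 to 2.82 with none. No signal over background was used.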
